A study of Homo sapiens with 18 samples.

Results

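WAPL knockout clone 3.3 was compared with wild-type control cells. The comparison used 6 of the 18 samples of the series, namely the 3 libraries labelled WaplKO_3.3 and the 3 wild-type libraries titled A1 to A3, and covered all 20329 genes of the deposited tables. All 6 samples are HAP1, a near-haploid human cell line that descends from a chronic myeloid leukaemia line and grows attached to the dish. The control cells carry no engineered knockout. The ΔWAPL cells are 1 clone, in which a WAPL-directed CRISPR plasmid (px330) and the insertion of a blasticidin resistance cassette disrupted the gene, so that effects of WAPL loss and of the choice of clone cannot be told apart from these 6 samples. The other samples are a second ΔWAPL clone (1.14) with its own controls, a ΔSCC4 line, and a double knockout made from ΔWAPL cells. The labels call the 3 libraries of a group replicates without saying whether they came from separate cultures, and p-values therefore measure the spread between these libraries.

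Cohesin is a ring of SMC1, SMC3 and RAD21 with a STAG subunit, which entraps DNA and enlarges chromatin loops until it is halted, often at sites bound by CTCF. The SCC2 (NIPBL) and SCC4 (MAU2) proteins promote its loading, and WAPL, together with the PDS5 proteins, opens the ring and releases it. In cells without WAPL, cohesin stays on DNA for longer and loops grow, and the study asked how far this affects gene expression.

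The last 19 bases of the guide RNA against WAPL match GRCh37 at chr10:88259864-88259882 on the plus strand, while WAPL (ENSG00000062650) is read from the minus strand. The G before them in the oligo, left out here with the cloning overhang, also matches the genome. The site is in coding sequence, in exon 3 of the 19 exons of the canonical transcript, and 24.9% of the 6310 transcript bases lie before the cut. It is shown because it places the disruption within the mRNA; the capitals mark the PAM, the short motif that Cas9 needs next to the target.
WAPL target: cgttccatagtatcctgtaTGG
Whether reads of the clone lie before or after the insertion was not tested, since the counts are per gene. WAPL was at 79.5, 96.7 and 118 CPM (the usual per-library scaling of counts, here with edgeR's TMM factors) in the controls and at 48.2, 40.1 and 39.9 CPM in clone 3.3. Every clone library was below every control. It fell by 1.20 ± 0.17 (SE) on the log2 scale (adjusted p = 0.000209 in edgeR's quasi-likelihood test), so that RNA assigned to the gene was 2.3-fold lower, not absent.

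The total count on genes was 15647569 to 17008191 in the controls and 14212412 to 20711127 in clone 3.3. Cytoplasmic ribosomal protein genes took 5.854 to 7.247% of the counts in the controls and 6.222 to 6.83% in the clone. The first principal component of log2 CPM, with 62.84% of the variance, set the groups apart. The second, with 23.84%, spread the replicates of both groups, with control replicate 1 and clone replicate 3 at one end and control replicate 3 and clone replicate 1 at the other. What distinguishes these libraries is not in the labels.

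After a filter on low counts 12489 genes were tested, and 1008 were differentially expressed at an adjusted p of 0.05, which is 8.07% of them. Expression was higher in clone 3.3 for 521 genes (4.17%) and lower for 487 (3.9%), at least 2-fold so for 317 and 262. At least an 8-fold change was seen in 37 genes that rose and 55 that fell. The genes that changed were mostly weakly expressed ones. Per kilobase of exon, the median tested gene had 6.13 CPM in the controls, the median gene that rose 0.517 and the median gene that fell 2.13. In the clone these medians were 1.23 for the genes that rose and 0.96 for those that fell. In the lowest quintile of genes by mean level 22.0% were differentially expressed, in the next quintiles 9.77%, 3.8% and 2.72%, and in the highest 2.08%. Over all genes tested, the log2 fold change had a median of -0.000624 and quartiles of -0.161 and 0.154.

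**Figure D1:**
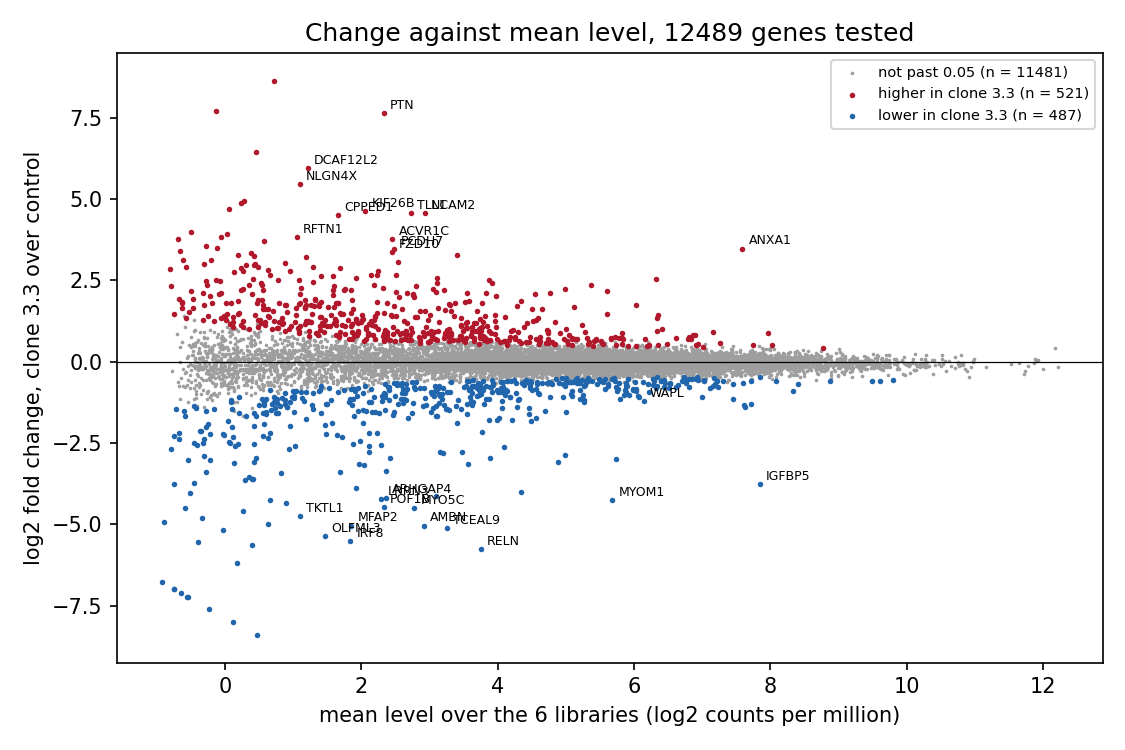
Log2 fold change of clone 3.3 over control (vertical axis) against mean log2 CPM over the 6 libraries (horizontal axis) for the 12489 genes tested; red points (521) are higher and blue points (487) lower at an adjusted p of 0.05. Most of the coloured points lie at low levels, and ANXA1, IGFBP5 and MYOM1 stand out among genes of higher level.

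The 12 largest rises, among genes of at least 1 on the mean log2 CPM scale whose groups did not overlap, included secreted factors, adhesion molecules and receptors. Not overlapping was part of the choice here, and 23.5% of all tested genes met it. PTN (pleiotrophin, a secreted growth factor, chromosome 7 from 136912088 to 137028520) had 2, 0 and 0 reads in the controls and 219, 134 and 140 in clone 3.3. Its ratio of normalized counts was 239, with a 95% counting interval from 65.7 to 1980. NCAM2, a neural cell adhesion molecule on chromosome 21 from 22370727 to 22915650, had 0.398, 0.787 and 0.582 CPM in the controls and 16.4, 14.6 and 12 CPM in the clone, which is 4.58 ± 0.25 (SE) on the log2 scale (edgeR adjusted p = 2.32e-08). All libraries of the clone thus lay far above a barely expressed control state. NLGN4X, a postsynaptic neuroligin, went from 1, 1 and 2 reads to 80, 57 and 61, with a log2 fold change of 5.46. KIF26B, an atypical kinesin, went from 0.265, 0.303 and 0.349 CPM to 7.51, 7.91 and 7.89 CPM (4.62). TLL1, a metalloprotease that trims matrix and BMP-binding proteins, went from 0.531, 0.545 and 0.465 CPM to 13.1, 14.2 and 9.87 CPM (4.58). DCAF12L2 had 3 reads over the controls and 217 over the clone, a ratio of 70 (23.6 to 342). CPPED1, a phosphatase, had a log2 fold change of 4.51, RFTN1, a lipid raft protein, one of 3.84, ACVR1C, an activin-type receptor, one of 3.78, PCDH7, a protocadherin, one of 3.46 and FZD10, a WNT receptor, one of 3.36. Both control reads of PTN were in replicate 1. The log2 fold change of DCAF12L2 was 5.97, and 6.86 without control replicate 1, and that of PCDH7 was 4.05 without control replicate 3.

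Among the 12 largest rises ANXA1 had the highest control level. This annexin, a calcium-dependent membrane-binding protein on chromosome 9 from 75766781 to 75785309, was at 33.2, 31.8 and 29.8 CPM in the controls and at 318, 389 and 352 CPM in clone 3.3. The rise was 11.2-fold (log2 fold change 3.48 ± 0.15 (SE), edgeR adjusted p = 2.31e-09). Its neighbour among the tested genes, ALDH1A1, a retinaldehyde dehydrogenase, rose as well (3.01), from 0.264 ± 0.057 CPM (SD, n = 3) to 2.21 ± 0.22 CPM (SD, n = 3).

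The 12 largest falls left all but one of the genes with at most 13 reads in any clone library. RELN, the secreted glycoprotein reelin that positions migrating neurons (chromosome 7 from 103111828 to 103630105), was at 24.1, 22.8 and 31.7 CPM in the controls and 0.43, 0.56 and 0.46 CPM in clone 3.3, 54-fold lower (log2 fold change -5.75 ± 0.25 (SE), edgeR adjusted p = 2.31e-09). IRF8, a transcription factor of myeloid and B cells, was at 6.97, 6.78 and 6.57 CPM and at 0.0478, 0.28 and 0.132 CPM (-5.53). In both genes no clone library held over 9 reads. TCEAL9 (-5.12), AMBN, which encodes the enamel protein ameloblastin (-5.04), MFAP2, a microfibril protein (-5.04), OLFML3, a secreted olfactomedin-like protein (-5.37), and TKTL1, a transketolase-like enzyme (-4.75), followed the same course. MYO5C, an unconventional myosin, fell from 8.03, 13.2 and 17.3 CPM to 0.335, 0.56 and 0.855 CPM (-4.50). MYOM1, a protein of the sarcomere M band, fell from the highest level of the 12, 98.4, 95.7 and 97.4 CPM, to 5.93, 4.41 and 4.87 CPM, 19-fold lower (-4.25, standard error 0.17, adjusted p = 1.91e-09 from edgeR). POF1B (-4.48), LRRN3 (-4.24) and ARHGAP4, a GTPase-activating protein (-4.18), completed the list. Without clone replicate 2 IRF8 was at -6.22 and MFAP2 at -5.85.

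**Figure D2:**
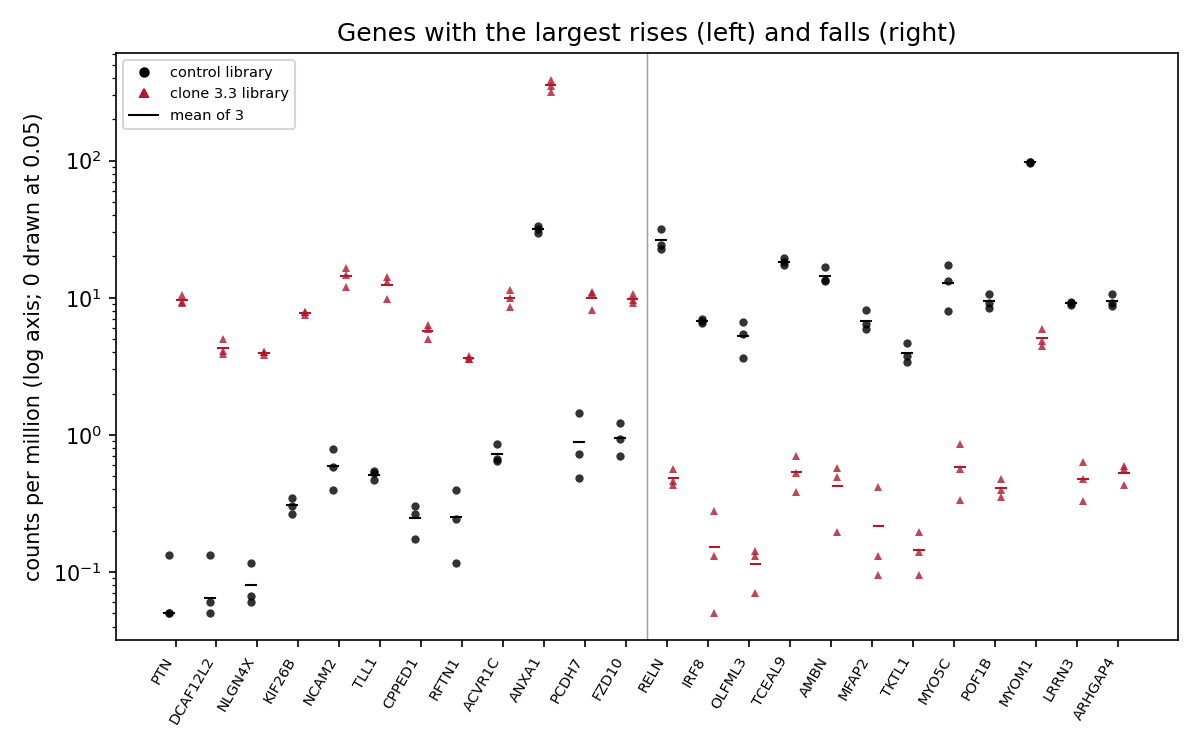
CPM (log axis, values of 0 drawn at 0.05) of the 12 genes with the largest rises and the 12 with the largest falls in each control library (black circles) and each clone 3.3 library (red triangles), with the mean of 3 as a bar. The rising genes lie below 1.5 CPM in the controls except ANXA1, and the falling genes lie under 1 CPM in the clone except MYOM1.

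A smaller set met a stricter description, with at most 3 reads in every library of one group and at least 30 in every library of the other. Those with at least 30 reads only in the clone 3.3 libraries were PTN, NLGN4X, DCAF12L2, ADCYAP1, which encodes a neuropeptide, and PDE3A, a cyclic nucleotide phosphodiesterase. ADCYAP1 had 0 reads in all controls and 62, 47 and 43 in the clone, at least 16.4-fold higher against a floor of 3 reads per library. PDE3A had 0, 0 and 1 reads against 48, 38 and 37, a ratio of 119 (21 to 4740), and its only control read was in replicate 3. Those nearly lost from the clone were TKTL1, OLFML3, SULF1, an enzyme that trims heparan sulfate, FASTKD2, a mitochondrial RNA-binding protein, and NLRP2, an NLR family protein. NLRP2 had 49, 34 and 41 reads in the controls and 0 in every clone library, at least 14-fold lower. FASTKD2 had 35, 53 and 48 reads and 1, 1 and 2 reads. Counting intervals and floors cover counting error only, because reads without molecular identifiers are not independent molecules.

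The 250 bases before the transcription start are shown for a gene that rose and a pair that fell, to show how different the promoters of strongly changed genes were in CG content. Capitals mark every CG. The sequences are RefSeq's for GRCh38.p14, at chr7:137343734-137343983 (minus strand) for PTN, chr7:103989659-103989908 (minus strand) for RELN and chrX:100584686-100584935 (plus strand) for TNMD, a tendon and ligament glycoprotein described with its locus.
PTN: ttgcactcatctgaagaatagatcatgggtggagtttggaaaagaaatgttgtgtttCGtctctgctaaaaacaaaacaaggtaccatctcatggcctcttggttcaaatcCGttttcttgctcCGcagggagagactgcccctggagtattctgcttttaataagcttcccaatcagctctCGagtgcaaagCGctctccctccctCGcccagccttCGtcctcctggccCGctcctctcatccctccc
RELN: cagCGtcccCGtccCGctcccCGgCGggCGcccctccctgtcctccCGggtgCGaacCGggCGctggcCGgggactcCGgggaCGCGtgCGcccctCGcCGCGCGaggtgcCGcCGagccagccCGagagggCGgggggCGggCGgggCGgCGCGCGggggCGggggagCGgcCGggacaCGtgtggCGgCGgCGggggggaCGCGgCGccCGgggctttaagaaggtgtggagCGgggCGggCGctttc
TNMD: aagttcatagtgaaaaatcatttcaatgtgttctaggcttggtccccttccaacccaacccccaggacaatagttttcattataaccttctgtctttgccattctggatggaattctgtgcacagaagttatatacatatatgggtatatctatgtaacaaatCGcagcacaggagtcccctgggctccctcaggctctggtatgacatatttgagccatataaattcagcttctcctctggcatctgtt
These windows hold 8 CGs in PTN, 43 in RELN and 1 in TNMD. Of the 10069 tested genes with such an entry, 1705 (16.9%) have a window that does not adjoin the start of the gene in RefSeq, NCAM2 among them, and its window is not shown. Over all 10069 the median was 22, with 18 for the 412 genes that rose and 16 for the 368 that fell. Weakly expressed genes had fewer CGs whether or not they changed, with a median of 18 among the 1752 tested genes under 3 on the log2 CPM scale, where those that rose had 17 and those that fell had 13. The letters TATAAA, searched on both strands, stood in 5.05% of all windows, in 8.98% of those of genes that rose and in 9.24% of those that fell, and among the weakly expressed genes in 7.59% of all 1752, 10.6% of those that rose and 9.41% of those that fell. Such matches describe the letters in the window only.

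The functions that changed were read from 43 gene lists. Among lists with 5 or more tested genes the share that changed ran from 0 to 69.2%, against 8.07% of all genes. Weak genes changed more often. In the lower 2 quintiles of level 15.9% of the tested genes were differentially expressed and in the upper 3 quintiles 2.87%. The lower 2 quintiles held 7 of 13 synaptic adhesion genes, 18 of 30 axon guidance genes, 13 of 20 Eph and ephrin genes, 22 of 36 matrix genes, 15 of 28 collagens and laminins and 9 of 16 integrins. They held 14 of 22 FGF genes, 24 of 34 BMP genes, 22 of 34 WNT genes, 15 of 26 NOTCH genes, 56 of 65 ion channels and 97 of 200 solute carriers. They held 21 of 26 HOX genes, 21 of 33 interferon-stimulated genes, 10 of 24 p53 targets, 4 of 8 serpins and 9 of 35 kinesins. What part of a list's share goes with its level was not tested.

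**Figure D3:**
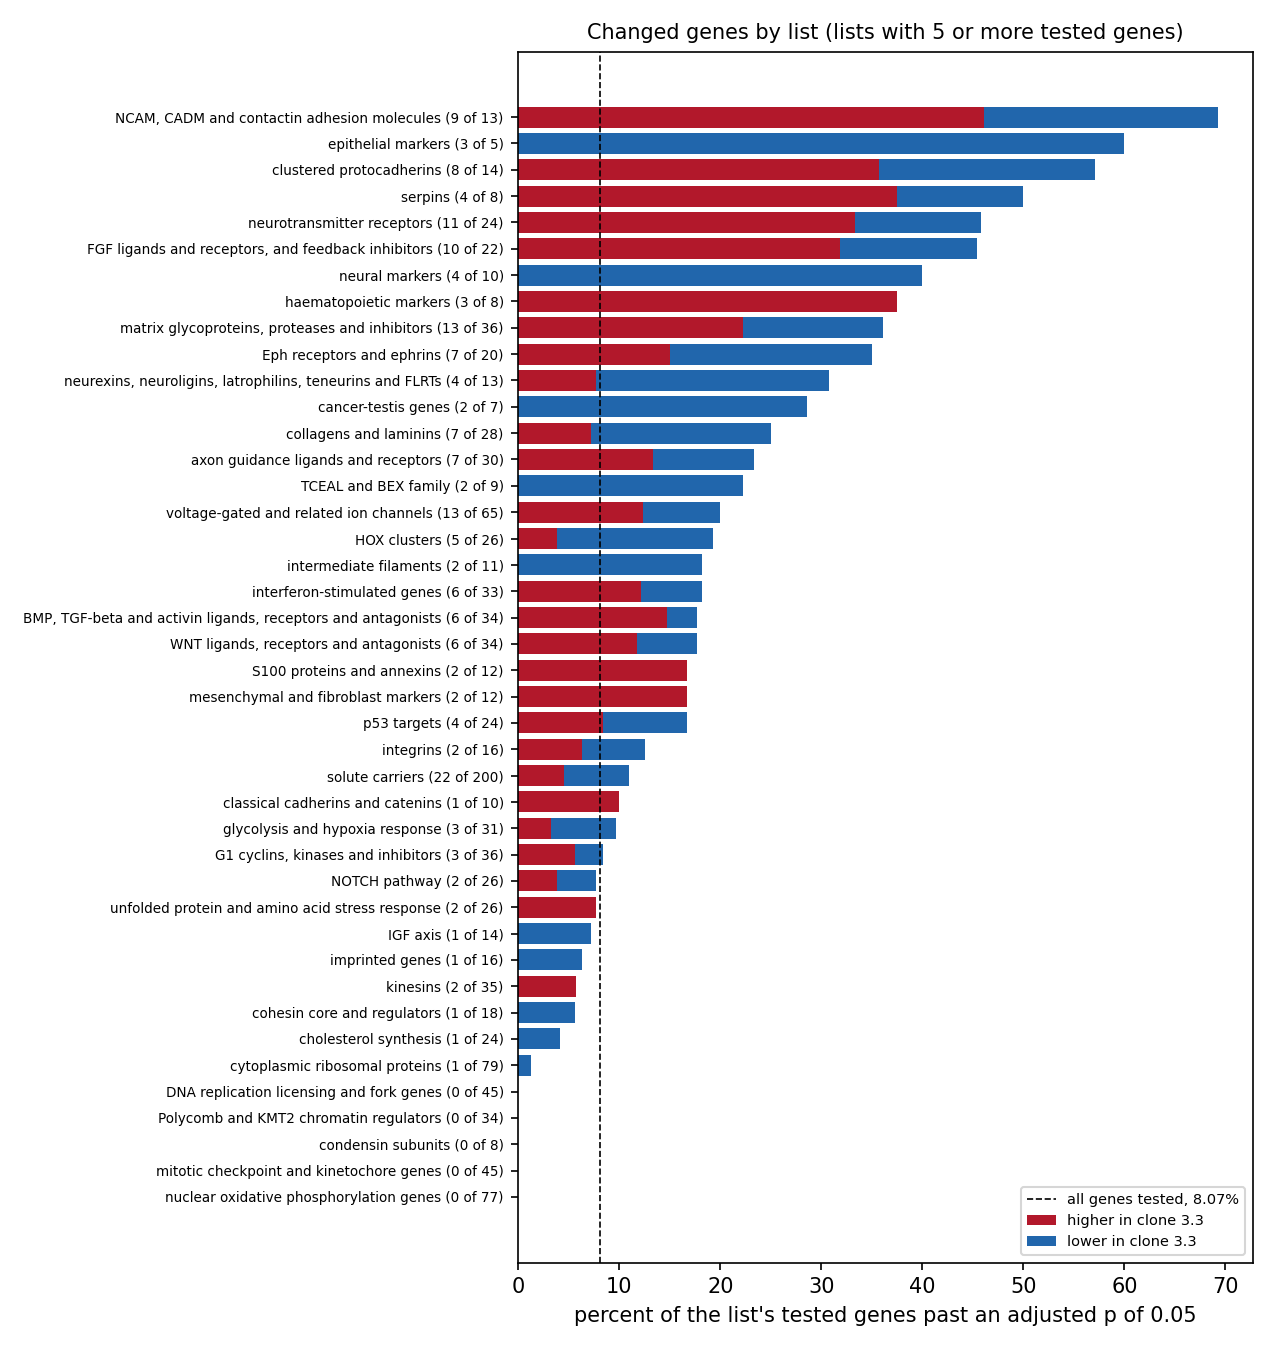
Percent of each list's tested genes at an adjusted p of 0.05, split into higher (red) and lower (blue) in clone 3.3, for lists with 5 or more tested genes; the dashed line is the share of all tested genes, 8.07%. The NCAM, CADM and contactin molecules head the plot with 9 of 13, and 5 lists at the foot have none.

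Of the NCAM, CADM and contactin adhesion molecules, most of them immunoglobulin-type proteins that join neighbouring cells, 9 of 13 tested members were differentially expressed (69.2%, against 8.07% of all genes), 6 of them higher and 3 lower. The median log2 fold change of the list was 0.37. NRCAM went from 3.58, 2.72 and 3.37 CPM to 15.3, 17.2 and 12.6 CPM (log2 fold change 2.22, adjusted p = 1.84e-06 from edgeR). CHL1, a close homolog of L1, went from 23.3, 28.6 and 38 CPM to 101, 112 and 87 CPM (1.74). In neither gene did the groups overlap. CNTNAP2, a caspr-type protein of the axon, rose from 5.04 ± 1.47 CPM (SD, n = 3) to 18.4 ± 3.1 CPM (SD, n = 3), CADM1 from 23.5 ± 1.68 to 51.9 ± 5.03 CPM and NFASC from 2.13 ± 0.43 to 5.72 ± 0.63 CPM. L1CAM (-1.04), ALCAM (-1.14) and CNTN1 (-1.07) fell. Members of this list thus moved in opposite directions, and 10 of the 13 lay in the lower 2 quintiles of level.

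The synaptic adhesion genes of the neurexin, neuroligin, latrophilin, teneurin and FLRT groups gave 4 changed of 13, 1 higher and 3 lower. That is 30.8%, against 8.07% of all genes. Besides NLGN4X, which rose, the latrophilin ADGRL3 fell from 21.8, 30.2 and 33.7 CPM to 8.8, 8.89 and 7.24 CPM (-1.78), and the teneurins TENM2 (-2.51) and TENM4 (-0.87) fell. The list's median was -0.40. Without control replicate 1 the 4 changed genes became 7. Of 30 axon guidance ligands and receptors 4 rose and 3 fell (23.3%), and without the same library 11 changed. SEMA3A, a secreted repellent, rose from 6.5, 10.1 and 9.95 CPM to 37, 39.6 and 35.8 CPM (2.08, adjusted p = 2.02e-06 from edgeR). SEMA3C (1.03), the netrin NTN4 (1.73) and the plexin PLXNB3 (2.50) rose, and RELN, the SLIT receptor ROBO2 (-1.45) and NEO1 (-0.57) fell. Among Eph receptors and their ephrin ligands, which signal between touching cells, 3 of 20 rose and 4 fell (35.0%). EPHA3 fell from 31.8, 37.5 and 39 CPM to 10.6, 12.6 and 9.14 CPM (-1.74), and its ligand EFNA5 (-0.90), EFNA1 (-0.81) and EPHB6 (-0.74) fell, whereas EPHB1 (1.40), EPHA8 (2.08, and 2.83 without control replicate 1) and EPHA6 (0.70) rose.

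Clustered protocadherins, whose promoters are chosen by CTCF- and cohesin-bound looping in neurons, were weakly expressed, with a summed level of 46.2 to 48.4 CPM in the controls and 59.7 to 70.3 CPM in clone 3.3. Of 14 tested members 5 rose (PCDHA3, PCDHAC2, PCDHB2, PCDHB3 and PCDHB5) and 3 fell (PCDHB14, PCDHGA10 and PCDHGC3). The changed share was 57.1%, against 8.07% of all genes. All 14 lay in the lower 2 quintiles of level, where 15.9% of all genes changed. PCDHB5 went from 8.36, 7.57 and 6.86 CPM to 18.9, 23 and 18.8 CPM (1.41, adjusted p = 3.67e-05 from edgeR). PCDHB14 had 2.26, 2.06 and 3.02 CPM and 0.861, 1.47 and 0.724 CPM (-1.29). The alpha and gamma genes share their last exons, so reads between them can be misassigned and their values are uncertain. Of the classical cadherins and catenins CDH9 (1.26) alone of 10 passed (10.0%), by edgeR and not by DESeq2. It passed in 1 of the 6 fits that left out a library.

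Extracellular matrix genes changed in both directions. Of 36 matrix glycoproteins, proteases and inhibitors 8 rose and 5 fell (36.1%, against 8.07% of all genes). SPARC, a collagen-binding matricellular protein, fell from 64.3, 54.9 and 47.5 CPM to 7.94, 8.12 and 6.91 CPM (-2.86, adjusted p = 4.82e-08 from edgeR). Next to it among the falls were FBN2, fibrillin 2, from 240 ± 41.3 to 109 ± 14.7 CPM (SD, n = 3), THBS2 (-1.13) and the metalloprotease inhibitors TIMP2 (-0.70) and TIMP3 (-1.19). The proteases TLL1, MMP2 (2.20), ADAMTS1 (0.96) and ADAMTS12 (1.51) all rose. TFPI2, an inhibitor of serine proteases, rose from 2.52, 1.94 and 2.33 CPM to 11.7, 11.1 and 11.2 CPM (2.33), and the proteoglycan SPOCK3 (2.59), THBS1 (0.86) and the crosslinking enzyme LOXL2 (1.08) rose. Of 28 collagens and laminins 2 rose and 5 fell. COL4A5 (-0.56), COL4A6 (-0.84), LAMA2 (-0.80), LAMB2 (-0.65) and LAMC3 (-1.29) fell, and COL24A1 (2.06) and LAMA3 (1.38) rose, so laminin chains moved in both directions. Of 16 integrins 2 changed (12.5%). ITGA4 rose from 38.1, 40.7 and 52.8 CPM to 115, 133 and 109 CPM (1.44), and ITGA2B, a platelet integrin chain, fell (-1.58).

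In the FGF, BMP and WNT lists more of the changed members rose than fell. The changed shares were 45.5%, 17.6% and 17.6% in that order, against 8.07% of all genes. In the lower 2 quintiles of level 8 of 14, 5 of 24 and 5 of 22 changed, against 15.9% of all genes there. Of 22 FGF ligands, receptors and feedback genes 7 rose and 3 fell. The rises took in the ETS factors ETV1, ETV4 (1.51) and ETV5 (1.02), the feedback inhibitors SPRY1 (1.27) and DUSP4 (1.14), which are induced by FGF and ERK signalling in many cells, and the ligands FGF9 (1.37) and FGF12 (1.90), the latter an intracellular member. ETV1 went from 1.92, 2.36 and 2.73 CPM to 9.56, 10.2 and 10.7 CPM. The receptors FGFR1, from 325 ± 41 to 214 ± 15.6 CPM (SD, n = 3), and FGFR2, from 126 ± 4.27 to 82.8 ± 7.54 CPM (SD, n = 3), and the ligand FGF5 (-1.82) fell. Of 34 BMP, TGF-beta and activin genes 5 rose and 1 fell. BMP7 went from 16.2, 12.2 and 11.6 CPM to 65, 67.7 and 74.5 CPM (2.37, adjusted p = 2.74e-07 from edgeR), with BMP6 (1.21), TGFB2 (1.03) and the receptor ACVR1C among the others that were higher and INHBB (-0.98) lower. Of 34 WNT genes 4 rose, FZD10, WNT7B (1.81), WNT3 (0.63) and the antagonist SFRP1 (0.95), and RSPO1 (-1.21) and RNF43 (-0.89) fell. The 6 WNT genes became 3 without clone replicate 2, and the 6 BMP genes became 10 without control replicate 1. The median log2 fold changes of these 3 lists were 0.14, -0.00485 and -0.009, in the order FGF, BMP and WNT.

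Of the NOTCH pathway 2 of 26 changed (7.69%), DTX1 up (2.36) and HEYL down (-0.90), and 4 changed without control replicate 1. In the IGF axis 1 of 14 changed (7.14%). Both shares were near the 8.07% of all genes. IGFBP5, a secreted IGF-binding protein on chromosome 2 from 217536828 to 217560272, was at 439, 413 and 429 CPM in the controls and at 29.4, 34.2 and 30.7 CPM in clone 3.3, 13.6-fold lower (log2 fold change -3.77 ± 0.15 (SE), edgeR adjusted p = 1.91e-09). The summed level of the list was 1431 to 1576 CPM in the controls and 973 to 1049 CPM in the clone. This sum includes IGFBP5, with means of 427 CPM in the controls and 31.4 CPM in the clone. The other 13 tested members did not pass.

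Many genes of excitable cells had no read or were weakly expressed in these cells. The tested ones had median levels of 6.22 CPM (neurotransmitter receptors) and 6.84 CPM (ion channels). Of 93 neurotransmitter receptor genes 33 had no read in the 6 libraries and 24 were tested. Of these 8 rose and 3 fell (45.8%, against 8.07% of all genes). The muscarinic receptor CHRM3 went from 1.86, 2.6 and 3.49 CPM to 10.9, 12.3 and 8.81 CPM (2.00). The glutamate receptors GRM4 (2.78), GRM8 (1.80), GRIA2 (1.57) and GRIK4 (0.90), the glycine receptor chain GLRB (0.78), CHRM4 (1.52) and HTR1D (0.83) rose, and HTR7 (-1.90), GRIK2 (-0.87) and GABRA5 (-0.55) fell. In all, 21 of the 24 lay in the lower 2 quintiles of level, including each of the 11 that changed. Of 65 tested ion channel genes 8 rose and 5 fell. KCNMB2, a subunit of the BK potassium channel, rose (2.93), as did the potassium channel KCNJ8 (2.27). The sodium channel SCN9A went from 14.7, 17.7 and 25.2 CPM to 2.53, 2.94 and 2.89 CPM (-2.79), KCND2 fell (-2.54), and TRPC4 had 47 reads over the controls and none in the clone, at least 5.24-fold lower.

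Solute carriers were closer to the average, with 9 of 200 higher and 13 lower, 14 in all without clone replicate 2. SLC12A3, the thiazide-sensitive cotransporter, fell from 8.36, 6.12 and 6.17 CPM to 0.383, 0.56 and 0.46 CPM (-3.88), SLC43A3, a purine transporter, fell (-2.95), and SLC4A4, a bicarbonate cotransporter (3.49), and SLCO4C1 (2.63) rose. Of 8 serpins, inhibitors of proteases, 3 rose and 1 fell. SERPINF1, the anti-angiogenic factor PEDF, rose from 24.9, 24.3 and 20.7 CPM to 128, 135 and 147 CPM (2.55, adjusted p = 4.82e-08 from edgeR), SERPINI1, neuroserpin, rose (2.68), as did SERPINE2 (0.80), and SERPINB9 fell (-0.60), the 4 becoming 2 without clone replicate 2, control replicate 2 or control replicate 3. Of 12 S100 and annexin genes S100A11 (1.21) rose with ANXA1 (16.7%). Of 35 kinesins KIF26B and KIF21A (0.64) rose, a share of 5.71% that is below that of all genes. Of 11 intermediate filament genes NES (-0.64) and KRT8 (-1.15) fell (18.2%). In the TCEAL and BEX family, a set of X-linked genes, TCEAL9 and TCEAL8 fell (22.2% of those tested). The other 7 tested members did not pass. TCEAL8 had 82 reads over the controls and 2 over the clone, a ratio of 42.4 (11.4 to 356), and the 2 reads were in clone replicate 1. Without clone replicate 2 the 2 kinesins and the 2 intermediate filament genes became 1 each. The kinesins became 1 also without control replicate 2, and 4 without control replicate 1.

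Among 26 tested HOX genes, which set position along the body axis, 1 rose and 4 fell (19.2%, against 8.07% of all genes). These 5 were all among the 21 members in the lower 2 quintiles of level, where 15.9% of all genes changed. Without clone replicate 2, or without control replicate 2, 3 changed. HOXB9 went from 7.43, 6.84 and 6.46 CPM to 1.39, 1.61 and 1.58 CPM (-2.18, adjusted p = 2.89e-06 from edgeR). HOXB6 (-1.97), next to it among the tested genes, HOXC11 (-1.33) and HOXD13 (-0.79) fell, while HOXD11 rose (1.06). Among cancer-testis genes, of which 69 of 102 had no read, ACTL8 (-3.15) and TKTL1 fell of 7 tested (28.6%). Of 16 tested imprinted genes DLK1 (-2.38) fell (6.25%, below the 8.07% of all genes).

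Of 33 interferon-stimulated genes 6 changed (18.2%, against 8.07% of all genes). Of these, 5 were among the 21 members in the lower 2 quintiles of level, where 15.9% of all genes changed. The 4 that rose were SAMD9 (1.77), the RNA sensor-like DDX60 (1.38), the immunoproteasome subunit PSMB8 (1.29) and IFIT1 (0.73), and IFITM1 (-1.35) and STAT2 (-0.59) fell. Of 24 p53 targets 4 changed (16.7%), in a line reported to have impaired p53 function, and 3 of the 4 were among the 10 members in the lower 2 quintiles. CDKN1A went from 11.2, 7.75 and 8.32 CPM to 15.9, 15.8 and 21.2 CPM (0.96) and FAS rose (0.67), and TP53I3 (-0.88) and BTG2 (-0.74) fell. Of 36 G1 cyclins, kinases and inhibitors CCND1, cyclin D1, rose from 4.64, 5.09 and 5.99 CPM to 28.3, 22.6 and 17.5 CPM (2.12, adjusted p = 4.86e-06 from edgeR) with CDKN1A, and MYCL fell (-0.69). Of the unfolded protein and amino acid response CEBPB (0.95) and CHAC1 (0.62) rose of 26. Of 31 glycolysis and hypoxia genes ADM (0.66) rose and the glucose transporter SLC2A3 (-1.26) and EGLN3 (-0.97) fell. The G1 (8.33%), unfolded protein (7.69%) and glycolysis and hypoxia (9.68%) lists were near the share of all genes. The 3 G1 genes became 5 without control replicate 3, and the 2 of the unfolded protein response became 1 without control replicate 2 or any 1 clone library.

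No gene passed among 8 condensin subunits, 45 replication genes, 45 mitotic checkpoint and kinetochore genes, 34 Polycomb and KMT2 regulators and 77 nuclear oxidative phosphorylation genes in edgeR's quasi-likelihood test. At an unadjusted p under 0.05 the counts were 1, 2, 2, 1 and 2, and DESeq2 called NCAPD2 among the condensin subunits, ZWINT among the mitotic genes, and none in the other 3 lists. With a library left out, edgeR called at most 1 gene in the condensin, mitotic and Polycomb lists and at most 2 in the oxidative phosphorylation list, the 2 without control replicate 1. These lists are strongly expressed, with median levels from 62.6 to 199 CPM. Of all tested genes 8.07% passed, but only 2.87% of those in the upper 3 quintiles of level, where most of these members lay. Lists of this size would hold few calls at that share. Of 79 genes matched as cytoplasmic ribosomal proteins, 1 passed, RPL7L1 (-0.69), a nucleolar relative of a ribosomal protein and not a subunit of the cytoplasmic ribosome, and none passed without clone replicate 2 or without control replicate 2.

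Of the 18 cohesin subunits and regulators WAPL alone passed (5.56%, against 8.07% of all genes), and 2 passed without control replicate 1. SMC3, at 150, 163 and 184 CPM in the controls and 191, 203 and 156 CPM in the clone, differed by 0.15 on the log2 scale (edgeR adjusted p = 0.721). The groups overlapped in SMC3, as they did in NIPBL, with a log2 fold change of 0.17 (adjusted p = 0.757 from edgeR). STAG1, a cohesin subunit, had 82.3, 95.4 and 105 CPM and 76.3, 70.3 and 58.6 CPM (-0.46 ± 0.16 SE, edgeR adjusted p = 0.0962), the largest difference of the list after WAPL. RAD21 (0.28), SMC1A (-0.15), STAG2 (0.12), PDS5A (0.12), PDS5B (-0.07), MAU2 (-0.25) and CTCF (-0.10) had edgeR adjusted p between 0.344 and 0.907.

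Marker genes of cell types were read in the same libraries. Of 21 haematopoietic markers 8 were tested, SPI1, MPO and HBG1 had no read, and PTPRC, CD34 and ITGAM had under 0.2 CPM in every library. TAL1, at 80.6, 70.2 and 66.5 CPM in the controls and 77.2, 68.6 and 67.4 CPM in clone 3.3, and GATA2 were the most abundant. RUNX1 (0.84), LYL1 (3.14) and HBB rose, HBB from 0 reads in all controls to 79 over the clone, at least 8.47-fold higher, while HBA1 did not pass. LYL1 had 2, 5 and 0 reads in the controls, and its log2 fold change was 4.26 without control replicate 2 and 2.56 without control replicate 3. The summed level of the list was 156 to 165 CPM in the controls and 155 to 162 CPM in the clone. Of 12 tested mesenchymal and fibroblast markers TWIST1 (1.40) and PDGFRA (1.62) rose, the sums being 776 to 914 and 694 to 769 CPM, and DCN and LUM had no read. Without control replicate 3 the 2 changed mesenchymal markers became 4. Of 10 tested neural markers NES, OLIG2 (-1.15), NEUROG2 (-1.29) and OLIG1 fell, with sums of 711 to 818 and 599 to 699 CPM and NEUROD1 at 0. OLIG1 went from 8.43, 7.08 and 6.28 CPM to 0.813, 0.77 and 0.789 CPM (-3.18, adjusted p = 3.38e-07 from edgeR). Of 5 epithelial markers EPCAM (-1.93), KRT8 and ESRP1 (-0.99) fell, with sums of 67.3 to 93.1 and 63.9 to 70.2 CPM and GRHL2 at 0. FLT1 (-1.14) was the only tested one of 8 endothelial markers, with CDH5 and ERG at 0. Whether these shifts have a part in the other changes was not tested, and in bulk RNA fewer cells of a type and less RNA per cell cannot be told apart.

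Changed genes lay next to each other more often than other genes did. Of 518 genes that rose, placed on the chromosomes, 22.4% had a directly neighbouring tested gene that rose, against 7.26% of the genes that did not change. Of 483 genes that fell 17.6% neighboured a gene that fell, against 7.17%. The opposite direction was found beside 7.92% of the rising and 8.28% of the falling genes, close to the shares beside genes that did not change. Runs of at least 3 neighbours past the threshold in the same direction numbered 11, of which 9 were higher and 2 lower, with 41 genes in all or 0.328% of those tested. Runs of at least 2 numbered 91 and held 201 genes (1.61%).

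**Figure D4:**
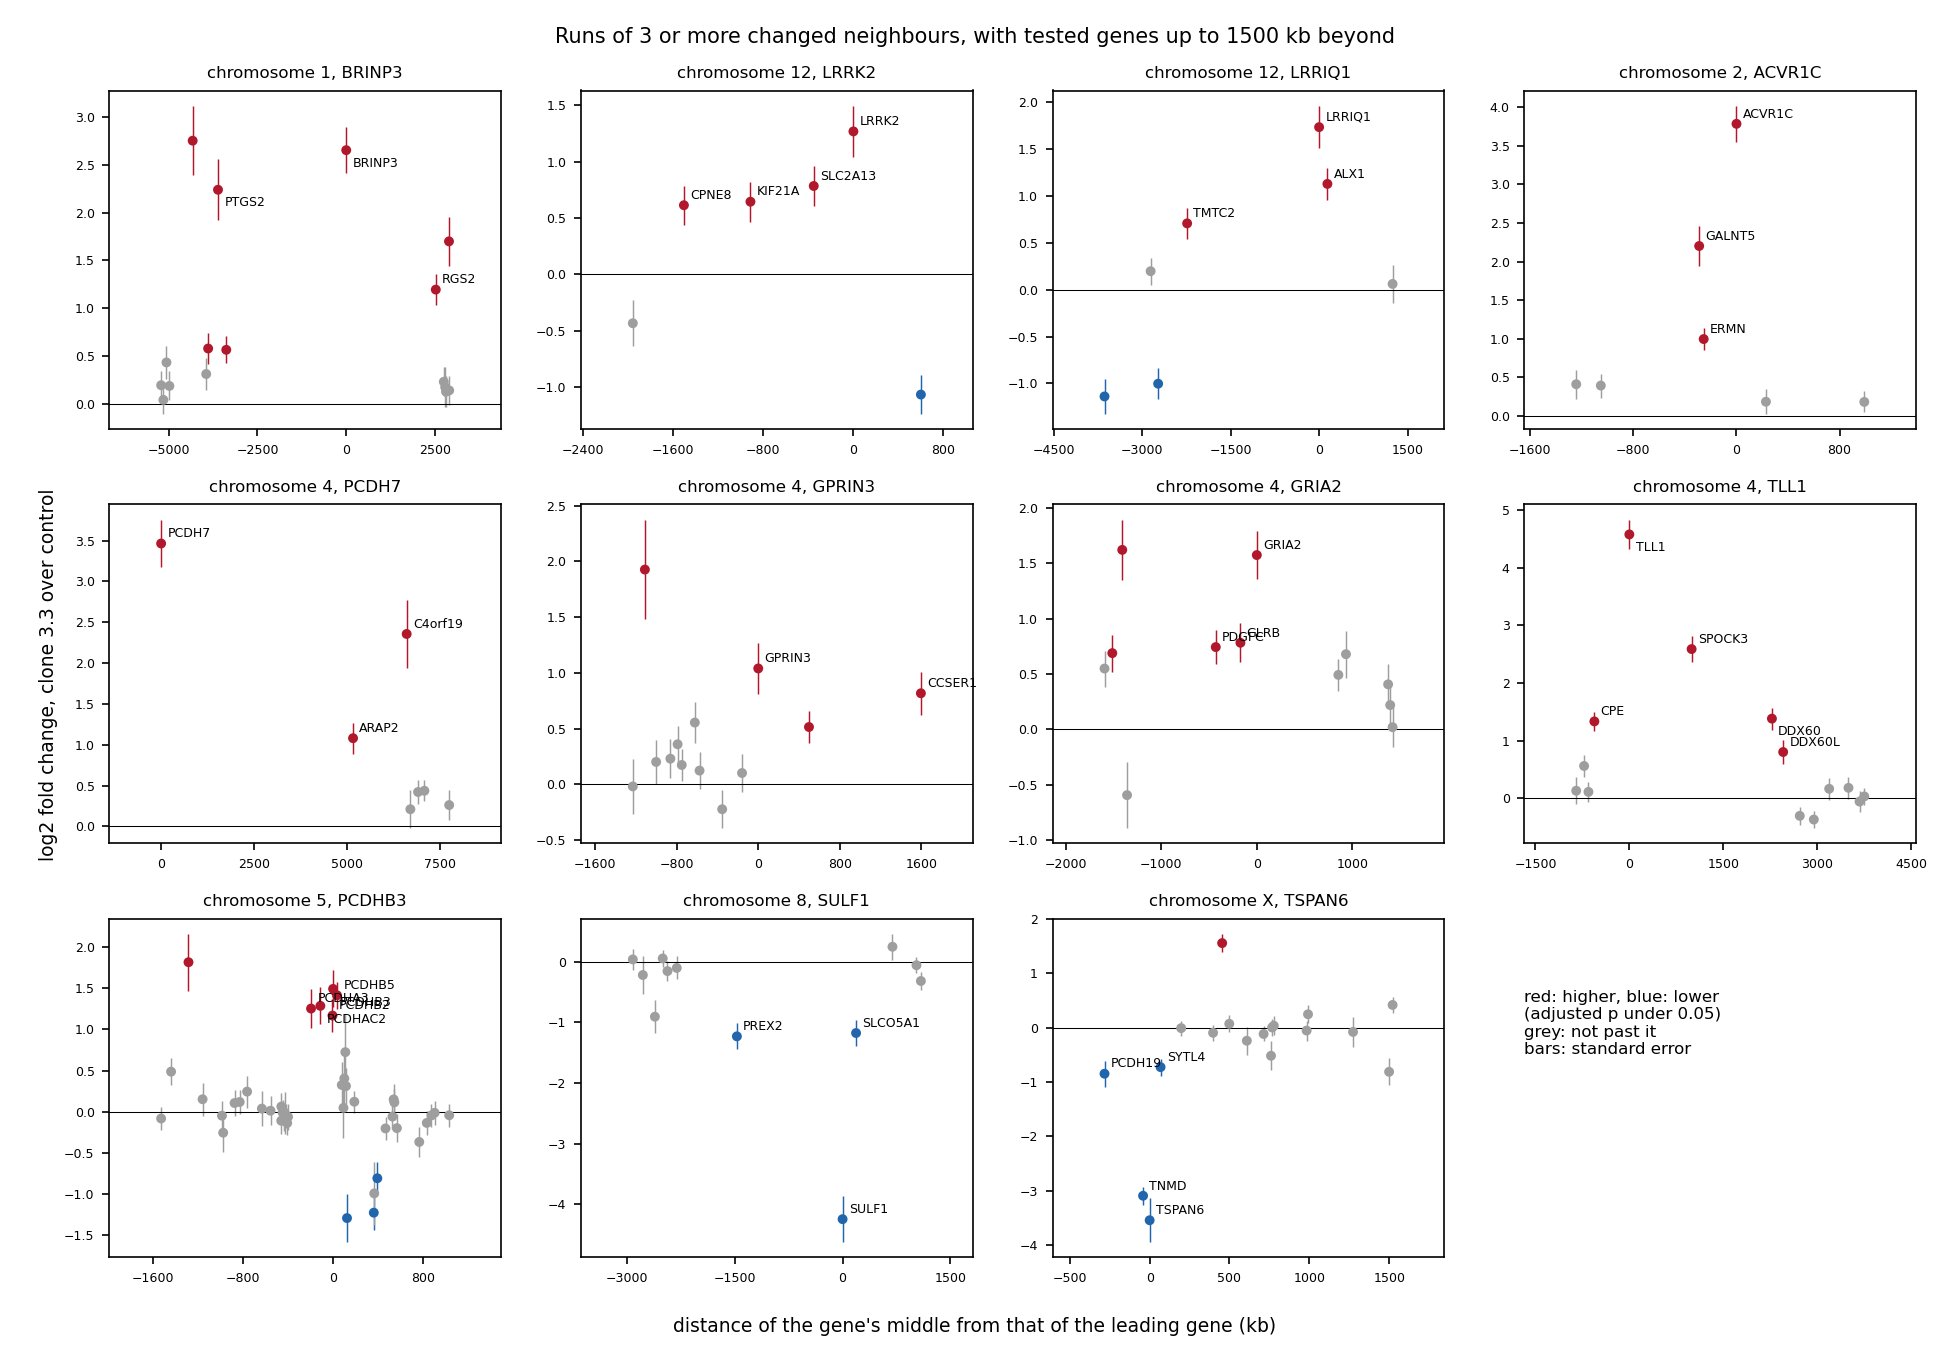
Log2 fold change of clone 3.3 over control with its standard error (vertical axes) for the tested genes of the 11 runs and beyond them, as far as the title states, against the distance in kb of each gene's middle from that of the run's leading gene (horizontal axes); red is higher, blue lower and grey not past the threshold, and the run members with the larger changes are named. The highest point is TLL1 on chromosome 4 (4.58) and the lowest SULF1 on chromosome 8 (-4.25).

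Of the 11 runs 4 lay on chromosome 4, all higher. One spanned 3177 kb from 166282346 to 169458937 and held CPE, a prohormone-processing carboxypeptidase, from 37.2, 50 and 49.6 CPM to 132, 113 and 101 CPM (1.34), then TLL1 (4.58), SPOCK3 (2.59), DDX60 (1.38) and its paralog DDX60L (0.81). The tested genes next to the run, MSMO1 (0.11) and PALLD (-0.30), did not pass. DDX60 and DDX60L are similar in sequence, and reads may be split between them. Another, of 627 kb from 157681606 to 158308298, held the growth factor PDGFC (0.74), GLRB (0.78) and GRIA2, an AMPA receptor subunit, from 2.52, 3.39 and 4.77 CPM to 9.8, 11.8 and 10.5 CPM (1.57). PCDH7 (3.46), ARAP2 (1.08) and C4orf19 (2.36) were consecutive tested genes over 6903 kb. Chromosome 4 as a whole had 46 higher and 10 lower of 459 tested genes (12.2%), and a median log2 fold change of 0.10.

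On chromosome 1 a run of 6436 kb held ODR4 (0.58), PTGS2 (2.24), PLA2G4A (0.56), BRINP3 (2.65) and RGS2 (1.19). PTGS2 and PLA2G4A encode cyclooxygenase 2 and a phospholipase that supplies its substrate, and BRINP3 went from 0.663, 1.03 and 0.64 CPM to 4.97, 4.55 and 5.26 CPM. On chromosome 2, within 371 kb from 158114217 to 158485376, GALNT5, a glycosyltransferase (2.20), ERMN, an oligodendrocyte cytoskeletal protein (1.00), and ACVR1C (3.78) rose together. ERMN was the strongest of them in CPM, from 58.5, 57.6 and 53.3 to 112, 118 and 109. On chromosome 12 a run of CPNE8 (0.61), KIF21A (0.64), SLC2A13 (0.78) and LRRK2 (1.27) spanned 1722 kb. Another, of TMTC2 (0.71), LRRIQ1 (1.73) and ALX1 (1.13), spanned 2615 kb. CPNE8 and KIF21A each lost significance in 4 of the 6 fits that left out a library, and SLC2A13 and TMTC2 in 2. The extent of these runs thus depends on single libraries. The run on chromosome 5 was the protocadherin cluster.

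The 2 falling runs were on chromosome 8, with PREX2 (-1.23), SULF1 (-4.25) and SLCO5A1 (-1.18) over 1883 kb, and on the X chromosome, with PCDH19 (-0.85), TNMD (-3.09), TSPAN6 (-3.54) and SYTL4 (-0.73) within 440 kb from 99546642 to 99987110. TNMD fell from 51.1, 54.8 and 51.4 CPM to 7.03, 5.46 and 5.85 CPM (adjusted p = 2.29e-08 from edgeR) and TSPAN6, a tetraspanin, from 1.79, 2.79 and 1.86 CPM to 0.239, 0.07 and 0.197 CPM. On the X chromosome 24 genes were higher and 38 lower of 452 tested (13.7%), the largest share of any chromosome, and on chromosome 17 the share was smallest, 4.48%.

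Pairs of changed neighbours were chosen after their values were seen, as examples. Neighbours here are consecutive tested genes, and genes that were not tested can lie between them. CHODL (3.22) rose with NCAM2 on chromosome 21 and TFPI2 with GNG11 (2.15) on chromosome 7. OLIG1 and OLIG2, TCEAL8 and TCEAL9, HOXB6 and HOXB9, the glypicans GPC3 and GPC4, and COL4A5 and COL4A6 each fell as neighbouring pairs of relatives.

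Long genes changed most often. The share of differentially expressed genes was 6.56% under 10 kb, 5.54% from 10 to 30 kb, 7.0% from 30 to 100 kb, 11.2% from 100 to 300 kb, 19.9% from 300 to 500 kb and 39.1% at 500 kb or more. In the longest class 79 of 202 tested genes changed, 47 higher and 32 lower, 56 of them at least 2-fold, and a further 118 genes of this length were too weak to be tested. The median log2 fold change of the class was -0.0719, so it moved in both directions. The association held within quintiles of level. In the lowest quintile the shares were 18.5% under 100 kb, 34.5% from 100 to 500 kb and 46.9% above, in the one above 7.29%, 15.3% and 45.6%, in the middle one 2.82%, 6.5% and 24.0%, and in the next 2.11%, 4.07% and 18.2%. In the highest quintile they were 1.61% and 4.49%, and 0 of 6 genes of 500 kb or more changed.

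**Figure D5:**
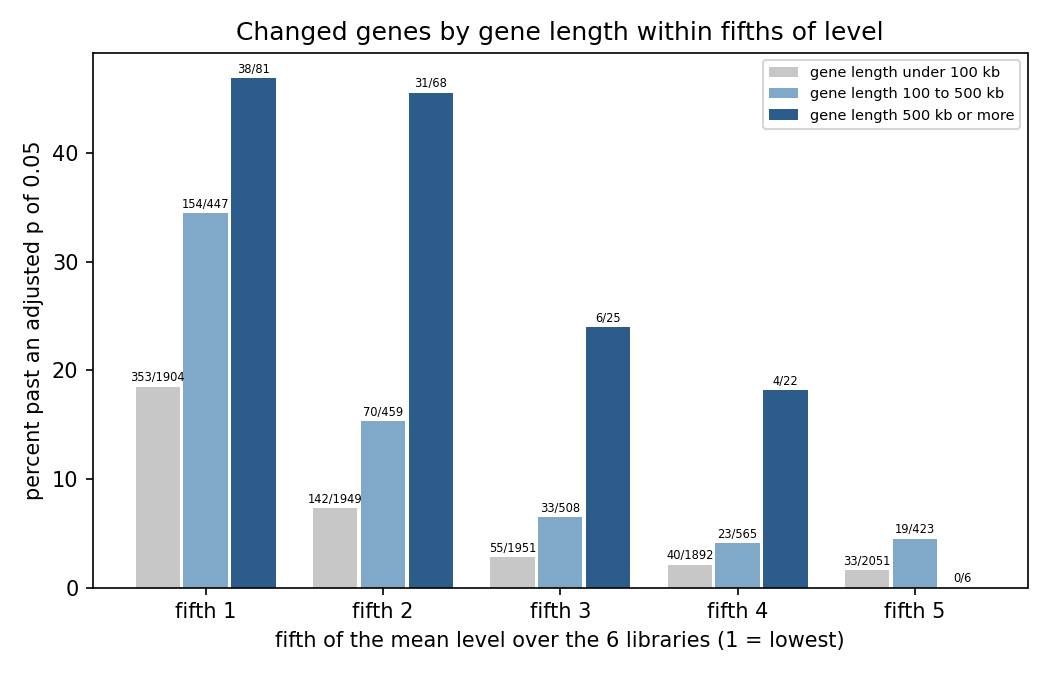
Percent of tested genes at an adjusted p of 0.05 (vertical axis) for 3 classes of gene length within quintiles of mean level (horizontal axis, 1 is the lowest), with the counts above the bars. In the 4 lower quintiles the bars rise with length, to 46.9% in the lowest.

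CNTNAP2, of 2305 kb, rose (1.86), and CSMD1, a complement-regulator-like membrane protein of 2060 kb, rose from 6.18 ± 0.17 to 24.9 ± 1.71 CPM (SD, n = 3; 2.01). DLG2, a synaptic scaffold of 2173 kb, fell from 10.6 ± 2.77 to 4.15 ± 0.52 CPM (-1.35), FHIT, of 1504 kb at a common fragile site, from 16.4 ± 0.68 to 4.41 ± 0.53 CPM (-1.89) and DPP10 from 24.8 ± 3.3 to 7.49 ± 0.63 CPM (-1.73). PTPRD, of 2299 kb and more abundant in CPM than these, had 57.9 ± 18.5 and 46.9 ± 4.8 CPM and did not pass (-0.31, adjusted p = 0.505 from edgeR). Among the largest changes of the class were ERBB4, a neuregulin receptor (3.34), GPC5 (3.25), DPYD, which degrades pyrimidines (4.88), ZNF385D (-4.59) and the synaptic vesicle protein SYT1 (-2.77). Gene length here is the span of the gene in the annotation, and genes near the end of a class may fall elsewhere in another release.

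At baseline, the 10 genes of highest level per kilobase of exon in the controls included GAPDH (1532 CPM per kb), RPS12 (1346), HSP90AB1 (1238), EEF2 (939), ACTG1 (921), RPS18 (914), ACTB (866), ATP5F1B (819) and RPL7A (806). None of the 10 passed the test, with log2 fold changes from -0.37 for ACTB (adjusted p = 0.202 from edgeR) to 0.07 for GAPDH. Among the most strongly expressed genes that did pass, GPC3, a heparan sulfate proteoglycan, had 979, 865 and 750 CPM in the controls and 558, 579 and 584 CPM in the clone (-0.59), and SCD, the stearoyl-CoA desaturase, had 1123, 1013 and 1070 CPM and 724, 736 and 693 CPM (-0.57). TUBA1A, an alpha-tubulin, fell in every clone library below every control (-1.41, adjusted p = 1.45e-05 from edgeR), GPC4 (-0.91) and the metallothioneins MT2A (-0.61) and MT1E (-0.53) fell, and the actin bundler PLS3 (0.43) and TMSB15A (0.47) rose. MT2A and MT1E belong to a family of near-identical copies, and reads may be split between them. With IGFBP5 and RPL7L1, these make the 10 genes of highest control level that changed, 8 of them lower.

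Clone 1.14, another ΔWAPL clone with its own 3 controls, was used to show where clone 3.3 differed. In one fit over both clones, clone 1.14 had 12.5% of 12786 genes differentially expressed, 5.61% higher and 6.92% lower. Of the 521 genes that rose in clone 3.3, 330 also passed as higher in clone 1.14, 27 passed as lower and 164 did not pass. Of the 487 that fell, 331 passed as lower and 12 as higher. The difference between the clones, tested as an interaction, passed for 339 genes (2.65% of 12786), among them 91 of those that rose in clone 3.3 and 95 of those that fell. The runs of neighbours were mostly shared, with 29 of 34 rising members also higher in clone 1.14. Of the 47 long genes that rose in clone 3.3, 38 were also higher there, and of the 32 that fell 16 were also lower. Each clone was read against its own set of controls, so a difference between clones and one between sets cannot be told apart.

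Some of the largest changes of clone 3.3 did not pass in clone 1.14, and the difference between the clones did. MYOM1 had a log2 fold change of -4.23 in clone 3.3 and -0.15 in clone 1.14 in the fit over both (difference -4.08, standard error 0.15, adjusted p = 1.78e-09 from edgeR), with 1223, 1264 and 1543 reads in its controls and 1482, 1304 and 1244 in the clone. MYO5C (difference -4.62), TFPI2 (2.49), SLC4A4 (3.43) and ETV4 (1.43) likewise had values near 0 in clone 1.14. Others went the opposite way. BMP7 rose in clone 3.3 and fell in clone 1.14, to 10, 13 and 9 reads from 178, 222 and 217 in its controls. CNTNAP2, CHAC1 and PSMB8 did the same, with -2.96, -1.29 and -1.84 in clone 1.14. FZD10, which rose in clone 3.3, had 19, 21 and 20 reads in the controls of clone 1.14 and 0 in each of its libraries, so that its fitted difference is no bound. KIF26B, NCAM2, TLL1, CPPED1, RFTN1 and ACVR1C had log2 fold changes of 4.40, 5.22, 4.17, 3.81, 3.86 and 3.37 in clone 1.14, and their differences between the clones did not pass.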

How the data were processed

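Strand-specific polyA libraries of HAP1 cells were sequenced. The deposited values are raw counts of reads per gene, made by the authors with TopHat2 (version 2.0.9 in the submitters' processing notes) on hg19 and HTSeq; the annotation release and the strand setting of the counting are not given in the sources used here. The 5 summary lines that end each file were left out. Of 20329 gene identifiers 19637 (96.6%) were matched to GENCODE 44 on GRCh37. Samples were grouped by their labels. The 6 libraries were fitted with edgeR 4.0.16 in R 4.3.3 (filterByExpr, TMM, quasi-likelihood test, Benjamini-Hochberg threshold 0.05), and the clones were compared by an interaction term over 12 libraries. Alternatives were DESeq2 1.42.0, its size factors, other count filters, a fit over all 18 samples, a replicate block and each replicate left out.

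The genes and lists were chosen with earlier results of these data known. Named genes are WAPL, NCAM2, the 12 largest rises and falls (mean log2 CPM of at least 1, groups not overlapping), up to 4 members per list with the largest change, tested cohesin members, members of runs, genes with at most 3 against at least 30 reads, the 10 highest control levels per kilobase among all and among changed genes, and markers. Other members and the long genes were named after their values were seen. On simulated counts (12407 genes) 96% of 2-fold and 100% of 4-fold changes were found, with 2.97% of calls false. For the difference between the clones (12676 genes) these were 74%, 100% and 5.43%. In these simulations changes were planted only in genes above a minimum expected count, and all genes had the same spread. These shares therefore do not cover the weakest genes or genes of larger spread. A few genes and the results that need them are not reported here.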

Additional observations from a re-analysis of the deposited data

Results flagged for a closer look

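The log2 fold change in clone 3.3 minus that in clone 1.14, each clone against its own controls, passed the interaction test in edgeR for 39 of the named genes. Over all genes it passed for 339 of 12786 (2.65%). Many named genes were chosen for a large change in clone 3.3 in these data, which favours such differences. The count of 39 is therefore not a result about the named genes as a set. The difference was negative for MYO5C -4.619, MYOM1 -4.08, TCEAL9 -3.77, SULF1 -2.52, IGFBP5 -2.491, GRIA2 -2.313, SLC43A3 -1.746, RELN -1.722, ADGRL3 -1.472, PCDH19 -1.351, SLC2A3 -0.9495, TENM4 -0.8348 and NES -0.7411. It was positive for CEBPB 0.9149, SFRP1 1.007, KRT8 1.015, PCDHB3 1.085, PCDHB2 1.175, IFITM1 1.285, ETV4 1.434, ACTL8 1.576, SPARC 1.63, ANXA1 1.766, KCNMB2 1.861, CHAC1 1.939, SLC12A3 2.22, AMBN 2.348, NLGN4X 2.363, TFPI2 2.492, PSMB8 3.144, LAMC3 3.282, GALNT5 3.319, SLC4A4 3.434, CNTNAP2 4.84, LYL1 5.375, TKTL1 5.966, BMP7 6.794, DCAF12L2 10.52 and FZD10 10.77.

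Each of DCAF12L2, FZD10 and TKTL1 had 0 reads in every clone 1.14 library, and SLC12A3 and LYL1 had at most 3 in each, so their fitted differences depend on the prior count and are no bounds. In the comparison of clone 3.3 no control library held over 3 reads of NLGN4X, SLC4A4 or DCAF12L2, and no clone library over 3 of SULF1 or TKTL1, so the same holds for them. TKTL1 and SLC12A3 fell in both clones. Clone and set of controls cannot be told apart in these differences.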

How the results depend on the processing

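The 1008 changed genes became 1753 in a fit over all 18 samples (787 higher and 966 lower, 44.9% higher against 51.7%), and 686 to 1180 with a replicate left out, lowest without clone replicate 2. The 339 genes differing between the clones became 211 with at least 10 counts in every sample and 218 to 372 with a replicate left out, lowest without clone 1.14 replicate 1. The 11 runs became 7 at 10 counts, 91 as runs of at least 2, and 5 (without clone replicate 2) to 17 (without control replicate 3). The 56 changed genes of chromosome 4 became 37 at 10 counts, 88 over 18 samples, and 39 to 69 with a replicate left out. The 79 long genes ranged from 60 to 88 and WAPL from -1.34 to -1.031 with a replicate left out. The long gene and chromosome 4 counts were added after the data were seen. Of 163 named changed genes 127 passed in every alternative and none reversed. CDH9, HOXD11, FAS, CHAC1, ODR4, PCDH19, TMSB15A, PLS3 and MT1E each lost significance in 5 of the 6 fits that left out a replicate. Of the 43 lists 22 stayed within 1.5 times.

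With the replicate number as a block, 767 genes changed, 173 differed between the clones, and WAPL was at -1.187. Deviations of same-numbered libraries correlated at -0.565, -0.007 and -0.561, so the numbers do not pair the samples. Of the named changed genes 21 did not pass with the block. Low counts limit the weakest genes, and the causes of these shifts were not tested.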
